A study of Mus musculus with 8 samples.

Results

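HCN and SK channels are 2 families of membrane channels that set when a pacemaking neuron fires. The 6 genes described here are 3 HCN genes (Hcn2, Hcn3 and Hcn4) and 3 SK genes (Kcnn1, Kcnn2 and Kcnn3). They were chosen by name, as channel genes of the dopamine neuron pacemaker. They are 6 of the 56691 genes in the deposited table, and all 6 were among the 19912 genes with enough reads to be tested.

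The study asked how gene expression in dopamine neurons of the mouse ventral tegmental area (VTA) differs after Ogt, the X-linked gene for the enzyme that attaches O-GlcNAc to proteins, is knocked down. The compared groups were 4 libraries from Ogtflox+/Y mice (replicates 2, 3, 4 and 5), which carry the floxed Ogt allele, and 4 libraries from Ogtflox-/Y mice (replicates 3, 4, 5 and 6), whose label marks them as without it. Both groups received the same pair of viruses in the VTA. AAV-TH-Cre expresses Cre recombinase under the promoter of tyrosine hydroxylase, the enzyme that starts dopamine synthesis, and AAV-Flex-NBL10 gives cells with Cre an HA-tagged protein, NBL10, through which ribosomes and their mRNA were pulled down and sequenced. The controls therefore carry Cre and the tag as well, and the cells sampled depend on where the TH promoter was active. Ages are not given, and no label says whether a replicate is 1 animal, several pooled animals or a repeat from the same animal, so each p-value speaks for the spread among these 8 libraries and no further, and that spread may be technical.

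HCN channels open when the membrane becomes more negative and carry an inward, depolarising current, the h-current, that pulls a neuron back toward its firing threshold. Cyclic AMP binds directly to them and makes them open more easily. SK channels are potassium channels that open when calcium reaches calmodulin bound to their inner end, and they carry an afterhyperpolarization that spaces action potentials. A prominent h-current is a classical mark of midbrain dopamine neurons, and blocking SK channels makes their regular firing irregular.

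Each channel has a short pore segment that selects the ion, and the coding sequence of that segment is shown because it holds the pore signature that both families carry. The stretches are 45 bases of the longest coding transcript of each gene in the GENCODE M21 annotation (GRCm38), written from 5′ to 3′ on the gene's own strand, with the 12 bases that encode the selectivity filter in capitals. Kcnn2 is not shown.
Hcn2: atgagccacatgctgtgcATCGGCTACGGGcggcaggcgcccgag
Hcn3: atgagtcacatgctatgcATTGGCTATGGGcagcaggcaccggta
Hcn4: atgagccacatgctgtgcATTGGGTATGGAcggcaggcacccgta
Kcnn1: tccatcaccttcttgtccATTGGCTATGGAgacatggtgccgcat
Kcnn3: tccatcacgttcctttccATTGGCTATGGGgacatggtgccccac
The stretches lie at chr10:79728938-79728982 for Hcn2, chr3:89150991-89151035 for Hcn3, chr9:58855570-58855614 for Hcn4, chr8:70850642-70850686 for Kcnn1 and chr3:89645497-89645541 for Kcnn3. They are in exon 4 of the 3 HCN transcripts and of the Kcnn3 transcript, and in exon 5 of the Kcnn1 transcript. Within the HCN family the stretches were identical at 80% to 86.7% of bases, and Kcnn1 and Kcnn3 were identical at 86.7%. Between the families, identity was 48.9% to 53.3%. No run of 50 bases in a transcript of any of the 6 genes occurred in a transcript of another of the 6, on either strand.

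The 8 libraries held 49802305 to 147747191 counted reads. Of the 6 genes, Hcn4 had the smallest count in any library, 268 reads in Ogtflox+/Y replicate 3, and Hcn2 the largest, 42449 reads in Ogtflox-/Y replicate 6. Values are given as CPM, a gene's reads relative to all reads of its library, after scaling by the trimmed mean of M values (TMM), a method that centres the bulk of genes. A gene was called when its p from edgeR's quasi-likelihood test, adjusted by Benjamini-Hochberg over all genes tested, was under 0.05. Of all genes tested, 28.5% were called, 15.1% lower and 13.4% higher in Ogtflox+/Y. The higher genes numbered 2659, and 1684 without Ogtflox-/Y replicate 4 or 1736 without Ogtflox-/Y replicate 6.

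Ogt itself had 74.4, 47.2, 41.7 and 36.0 CPM in the Ogtflox+/Y libraries, against 159, 118, 118 and 108 CPM in the Ogtflox-/Y libraries. Its log2 fold change was -1.34 ± 0.23 (SE, adjusted p = 0.00243), and it was +0.14 when libraries were scaled on dopamine neuron markers.

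Cell type markers also differed between the groups, and no marker of any list was at 0 in a library. The dopamine markers Th and Slc6a3 (the dopamine transporter) were read in every library but fell in Ogtflox+/Y, with log2 fold changes of -1.72 and -2.24. Of 13 dopamine neuron markers, 11 were lower and 1 higher, and they summed to 1812 to 2449 CPM in Ogtflox+/Y, against 2193 to 3930 CPM in Ogtflox-/Y. The higher one, Aldh1a1, a retinal dehydrogenase, had 1323 to 1951 CPM in Ogtflox+/Y, against 499 to 979 CPM in Ogtflox-/Y. The other 12 summed to 469 to 739 CPM in Ogtflox+/Y, against 1534 to 3432 CPM in Ogtflox-/Y, with no overlap. Of 20 general neuron markers, 18 were lower and none was higher, and their summed level was 6830 to 8385 CPM in Ogtflox+/Y, against 16413 to 17259 CPM in Ogtflox-/Y. The neuronal nuclear marker Rbfox3 had a log2 fold change of -0.68 (adjusted p = 0.0439), which turned positive under both marker scalings described further on. That call was lost without Ogtflox+/Y replicate 2, 3 or 4 or Ogtflox-/Y replicate 4, 5 or 6 (adjusted p = 0.0567 to 0.111). Markers of GABA neurons (6 of 8), glutamate neurons (2 of 4) and serotonin neurons (3 of 3) were lower, and those of blood vessels were not called (0 of 8). Astrocyte markers summed to 8242 to 12607 CPM in Ogtflox+/Y, against 787 to 4193 CPM in Ogtflox-/Y (3 of 10 higher). Gfap, an intermediate filament of astrocytes, made up 5372 to 8401 CPM of that sum in Ogtflox+/Y, against 237 to 1860 CPM in Ogtflox-/Y, and the other 9 summed to 2871 to 4353 CPM in Ogtflox+/Y, against 551 to 2401 CPM in Ogtflox-/Y. Microglial markers summed to 39.6 to 135 CPM in Ogtflox+/Y, against 13 to 26.4 CPM in Ogtflox-/Y (8 of 10 higher). Oligodendrocyte markers summed to 1939 to 4404 CPM in Ogtflox+/Y, against 1261 to 1868 CPM in Ogtflox-/Y (4 of 10 higher). The 8 libraries hold mRNA pulled down with tagged ribosomes, so marker sums do not measure the cells present in the VTA. How much of each marker came from tagged cells was not tested. In such samples, fewer cells of a type and less RNA per cell cannot be told apart. The part of this shift in the values of the channel genes was not tested.

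The library numbered 3 stood apart in each group. Blood vessel markers summed to 32.2 to 49.7 CPM in Ogtflox+/Y, and in Ogtflox-/Y to 877 CPM in replicate 3 and at most 20.7 CPM in the other libraries. Ogtflox-/Y replicate 3 also had the lowest astrocyte sum, 787 CPM. Ogtflox+/Y replicate 3 was the lowest of its group for all 6 channel genes. Values without both libraries numbered 3 are therefore given for each of the 6 genes.

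**Figure D1:**
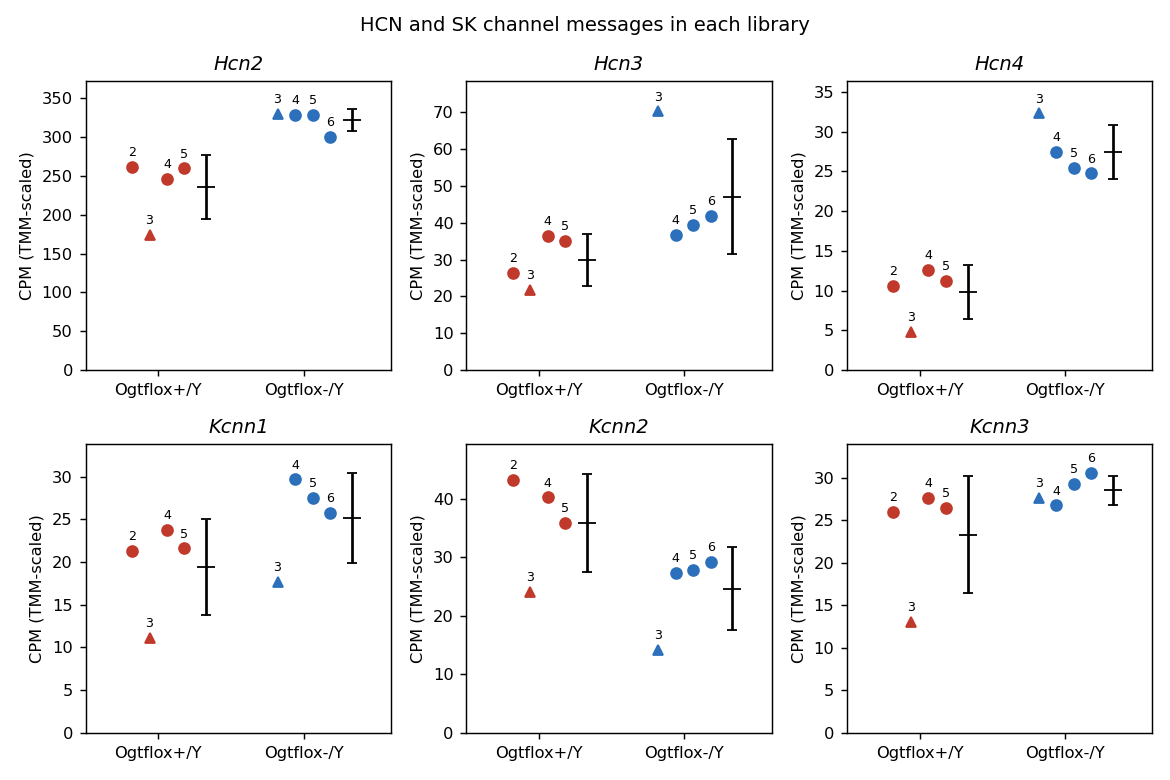
TMM-scaled CPM (y axis, linear, from 0) of the 6 channel genes in the 4 Ogtflox+/Y libraries (red, left) and the 4 Ogtflox-/Y libraries (blue, right). Numbers are replicate numbers, triangles are the libraries numbered 3, and black bars are the mean ± SD of 4 libraries. Hcn4 shows the widest gap for its level, with 4.85 to 12.6 CPM in Ogtflox+/Y and 24.8 to 32.3 CPM in Ogtflox-/Y.

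Hcn4 encodes the HCN subunit that responds strongly to cyclic AMP and drives the pacemaker of the heart. Its gene lies at chr9:58730695-58770458 on the plus strand (GRCm39 coordinates of the deposited table). It had 10.6, 4.85, 12.6 and 11.3 CPM in the Ogtflox+/Y libraries, against 32.3, 27.5, 25.5 and 24.8 CPM in the Ogtflox-/Y libraries. The groups did not overlap. The mean was 9.83 ± 3.43 CPM in Ogtflox+/Y and 27.5 ± 3.40 CPM in Ogtflox-/Y (SD, n = 4 each). Hcn4 was thus 2.79-fold lower in Ogtflox+/Y, a log2 fold change of -1.48 ± 0.26 (SE, adjusted p = 0.00308 by edgeR's quasi-likelihood test). The call held in all 8 repeats that left out 1 library, with log2 fold changes of -1.65 to -1.26, and without both libraries numbered 3 it was -1.17 (adjusted p = 5.75e-06, range over the alternatives 1.21e-06 to 0.628).

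Hcn2 encodes the subunit that is widespread in the brain and carries much of the thalamic h-current. It lies at chr10:79552468-79571942, plus strand (GRCm39). Its level was 262, 174, 246 and 259.5 CPM in the Ogtflox+/Y libraries, against 329.7, 329, 329 and 300.2 CPM in the Ogtflox-/Y libraries. Every Ogtflox+/Y library was below every Ogtflox-/Y library, and Ogtflox+/Y replicate 3 was the lowest. Hcn2 averaged 236 ± 41.4 CPM in Ogtflox+/Y and 322 ± 14.4 CPM in Ogtflox-/Y (SD, n = 4 each). The log2 fold change was -0.45 ± 0.15 (SE), 1.37-fold lower in Ogtflox+/Y, and it passed narrowly (adjusted p = 0.0445, range over the alternatives 0.0037 to 0.116). The call was lost without Ogtflox+/Y replicate 4 (adjusted p = 0.0708) or 5 (0.0532), and without Ogtflox-/Y replicate 4 (0.0887), 5 (0.101) or 6 (0.0803). It was kept without both libraries numbered 3, at -0.32 (adjusted p = 0.00684). The range also holds positive values that passed. Hcn2 had +0.57 (adjusted p = 0.00571) under scaling on neuron markers and +0.90 (0.0126) under scaling on dopamine neuron markers.

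Hcn3 encodes a subunit whose response to cyclic AMP is weak. It lies at chr3:89053381-89067503, minus strand (GRCm39), and 17.1% of its exon bases (711 of 4154) also belong to Pklr on the other strand, where reads could not be assigned. It had 26.4, 21.7, 36.4 and 35.2 CPM in the Ogtflox+/Y libraries, against 70.2, 36.8, 39.5 and 41.8 CPM in the Ogtflox-/Y libraries. The groups did not overlap but came close together, and Ogtflox-/Y replicate 3 was far above the rest. The mean was 29.9 ± 7.05 CPM in Ogtflox+/Y and 47.0 ± 15.6 CPM in Ogtflox-/Y (SD, n = 4 each). The log2 fold change of -0.65 ± 0.24 (SE) did not pass the test (adjusted p = 0.0674, range over the alternatives 0.0164 to 0.331), and it was -0.40 (adjusted p = 0.113) without Ogtflox-/Y replicate 3 and -0.27 (adjusted p = 0.0794) without both libraries numbered 3. DESeq2 placed it under the threshold, at -0.63 (adjusted p = 0.0397). The smallest adjusted p of the range, 0.0164, went with a positive value, +0.74, under scaling on dopamine neuron markers.

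Kcnn2 encodes SK2, the SK channel with the best studied role at dendritic spines. It lies at chr18:45401927-45819091, plus strand (GRCm39). Its values were 43.3, 24.2, 40.3 and 35.9 CPM in the Ogtflox+/Y libraries, against 14.1, 27.3, 27.9 and 29.3 CPM in the Ogtflox-/Y libraries. Alone among the 6 genes it had the larger mean in Ogtflox+/Y, 35.9 ± 8.40 CPM against 24.6 ± 7.05 CPM in Ogtflox-/Y (SD, n = 4 each), and in each group the library numbered 3 was the lowest. The groups overlapped through Ogtflox+/Y replicate 3, and the log2 fold change of +0.54 ± 0.25 (SE) did not pass the test (adjusted p = 0.136, range over the alternatives 0.000306 to 0.317). Without both libraries numbered 3 it was +0.50 ± 0.10 (SE) and passed (adjusted p = 0.00149). Kcnn2 shares 4.33%, 3.8% and 2.66% of its exon bases with 1 antisense gene each, and the total stretch was not computed.

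Kcnn1 encodes SK1, an SK channel of brain neurons. It lies at chr8:71294693-71315902, minus strand (GRCm39), and it had 21.3, 11.1, 23.7 and 21.6 CPM in the Ogtflox+/Y libraries, against 17.7, 29.7, 27.5 and 25.7 CPM in the Ogtflox-/Y libraries. Here too the libraries numbered 3 were the lowest of their groups, and the groups overlapped through Ogtflox-/Y replicate 3. The mean was 19.4 ± 5.64 CPM in Ogtflox+/Y and 25.1 ± 5.23 CPM in Ogtflox-/Y (SD, n = 4 each). The log2 fold change was -0.37 ± 0.25 (SE, adjusted p = 0.29, range over the alternatives 0.0203 to 0.489). Without both libraries numbered 3 it was -0.31 and passed (adjusted p = 0.0203). Positive values passed under scaling on neuron markers, +0.65 (adjusted p = 0.0233), and on dopamine neuron markers, +0.89 (0.0206).

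Kcnn3 encodes SK3, the SK channel best known in midbrain dopamine neurons. It lies at chr3:89427471-89582439, plus strand (GRCm39), 360 kb from Hcn3 with 35 genes between them. It had 26.0, 13.03, 27.6 and 26.4 CPM in the Ogtflox+/Y libraries, against 27.6, 26.7, 29.2 and 30.6 CPM in the Ogtflox-/Y libraries. Apart from Ogtflox+/Y replicate 3, which was far below the others, the libraries of both groups lay close together. The mean was 23.3 ± 6.87 CPM in Ogtflox+/Y and 28.5 ± 1.71 CPM in Ogtflox-/Y (SD, n = 4 each). The log2 fold change of -0.29 ± 0.22 (SE) did not pass (adjusted p = 0.349). Without both libraries numbered 3 it was -0.11 (adjusted p = 0.361, range over the alternatives 0.00549 to 0.527). The smallest adjusted p of that range, 0.00549, went with a positive value, +1.02, under scaling on dopamine neuron markers. A relative with higher single-channel conductance, Kcnn4, was low, with 1.081, 0.796, 0.533 and 1.20 CPM in the Ogtflox+/Y libraries, against 0, 0.167, 0.387 and 0.340 CPM in the Ogtflox-/Y libraries. Its groups did not overlap, but the log2 fold change of +1.98 ± 0.85 (SE) did not pass (adjusted p = 0.109).

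In all, 2 of the 6 genes were lower (Hcn4 and Hcn2) and none was higher, beside 15.1% and 13.4% of all genes. The median log2 fold change was -0.41 over the 6 genes and 0.002 over all genes tested. The count of lower genes was 1, Hcn4 alone, in each repeat that lost the call of Hcn2, beside 10.4% to 12.5% of all genes. It was 3 of 6 without both libraries numbered 3, with Kcnn1 added, and Kcnn2 was then called higher. In that fit 23.3% of all genes were lower and 23.5% higher. Groups did not overlap for 3 of the 6 (Hcn2, Hcn3 and Hcn4), all lower in Ogtflox+/Y, beside 18% of all genes.

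The direction of most of these values depended on what the libraries were scaled on. When the 20 neuron markers were set equal in all libraries, the median over all genes became +1.03. Relative to that median, Hcn4 was far below at -0.48 and Kcnn2 was above at +1.58. Hcn2 (+0.57), Hcn3 (+0.34), Kcnn1 (+0.65) and Kcnn3 (+0.72) were below it with their sign turned. The edgeR test set each value against 0 and not against that median, and it called 64.9% of all genes higher. Adjusted p was 0.11 for Hcn4, 0.000306 for Kcnn2, 0.00571 for Hcn2, 0.231 for Hcn3, 0.0233 for Kcnn1 and 0.00996 for Kcnn3. Scaling on the 13 dopamine neuron markers moved the median to +1.38. Hcn4 then had a log2 fold change of -0.16 (adjusted p = 0.628), Hcn2 +0.90, Hcn3 +0.74, Kcnn1 +0.89, Kcnn3 +1.02 and Kcnn2 +1.82. Hcn4 was the only one of the 6 with a negative value under every scaling tried. Kcnn2 was positive under TMM already, and scalings that move genes upward could not turn its sign.

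**Figure D2:**
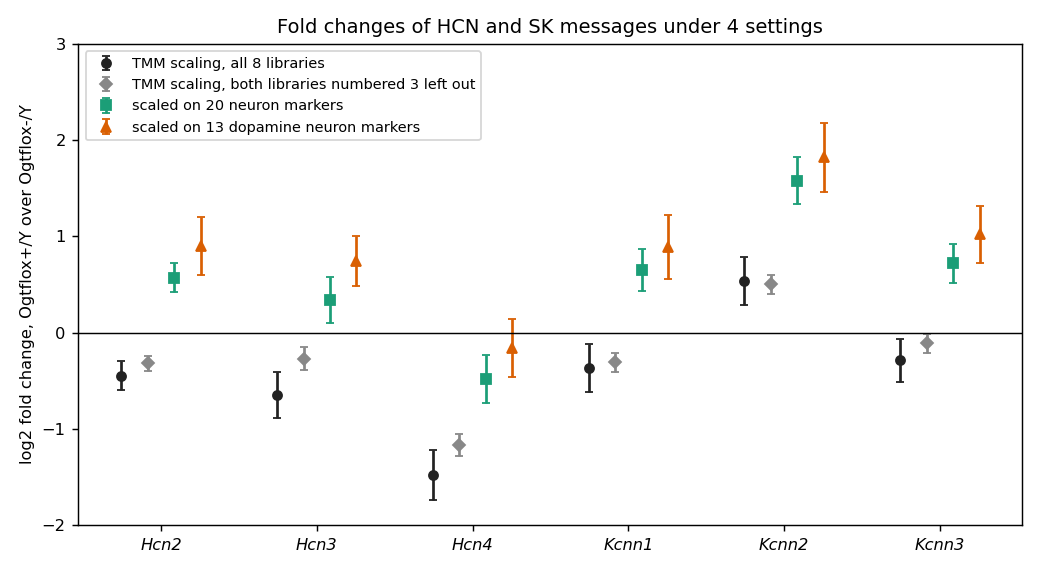
Log2 fold change of Ogtflox+/Y over Ogtflox-/Y (y axis) for each channel gene (x axis) under 4 settings, with bars of 1 SE. Under TMM scaling 5 of 6 values are negative. Scaling on neuron or dopamine neuron markers moves all 6 upward, and Hcn4 (-0.48 and -0.16) remains the lowest and Kcnn2 (+1.58 and +1.82) the highest.

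The same shift can be read library by library. Relative to the mean log2 CPM of the 20 neuron markers, Hcn4 stood at -4.72, -5.82, -4.67 and -4.90 in the Ogtflox+/Y libraries, against -4.16, -4.55, -4.61 and -4.65 in the Ogtflox-/Y libraries. The groups separated by a narrow margin, with a difference of means of -0.53. Kcnn2, on the same scale, stood at -2.69, -3.51, -3.00 and -3.24 in the Ogtflox+/Y libraries, against -5.35, -4.56, -4.48 and -4.40 in the Ogtflox-/Y libraries, a difference of +1.59 with a wide gap between the groups. Hcn2 also separated, in the other direction from its CPM, with a difference of +0.56. For Hcn3, Kcnn1 and Kcnn3 the groups overlapped. Relative to the 13 dopamine neuron markers, Hcn4 overlapped between groups (difference -0.19) and the other 5 genes lay higher in every Ogtflox+/Y library, from +0.74 for Hcn3 to +1.93 for Kcnn2. Scaling on these 13 markers moved the median of all genes to +1.38, with 71.9% of all genes called higher. On the 20 neuron markers the median was +1.03, with 64.9% called higher. Only Kcnn2 had differences above these medians. The share of all genes whose groups separate on these scales was not computed. The differences are descriptions without a test.

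Levels of different genes were compared as CPM per kb of exon. Hcn2 was the most abundant by a wide margin, with 73.7 ± 12.9 CPM per kb in Ogtflox+/Y and 101 ± 4.51 in Ogtflox-/Y (SD, n = 4 each), and no other of the genes reached its range. In Ogtflox+/Y the order was then Hcn3 (7.20 CPM per kb), Kcnn2 (4.81), Kcnn1 (4.23), Kcnn3 (2.23) and Hcn4 (1.61), and the ranges of each neighbouring pair from Hcn3 downward overlapped. That order held within each of the 4 libraries, and apart from replicate 3, the lowest for all 6, the ranges of Kcnn2 and Kcnn1 alone overlapped among these pairs. In Ogtflox-/Y the order was Hcn3 (11.3 CPM per kb), Kcnn1 (5.48), Hcn4 (4.50), Kcnn2 (3.30) and Kcnn3 (2.73). There the ranges of Kcnn1 and Hcn4 and those of Kcnn2 and Kcnn3 overlapped, both pairs being the other way round in replicate 3, while Hcn3 lay above Kcnn1 and Hcn4 above Kcnn2 in every library. Hcn4 thus stood last of the 6 in Ogtflox+/Y, and above both Kcnn2 and Kcnn3 in Ogtflox-/Y. The exon length of Kcnn3 in the table, 10451 bases, far exceeds its longest coding transcript (2884 bases), so its level per kb is the most dependent on the annotation.

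Shares among the genes of a family described here do not depend on the scaling of libraries. Hcn4 made up 1.92%, 1.31%, 2.35% and 2.01% of the summed CPM per kb of Hcn2, Hcn3 and Hcn4 in the Ogtflox+/Y libraries, against 4.21%, 3.86%, 3.57% and 3.75% in the Ogtflox-/Y libraries. Its share did not overlap between groups, while the shares of Hcn2 and Hcn3 did. Hcn2 made up most of the sum in both groups, 89.4% ± 1.46 in Ogtflox+/Y and 86.5% ± 2.89 in Ogtflox-/Y (SD, n = 4 each). The sum of these 3 HCN genes was 90.1, 60.6, 88.0 and 91.5 CPM per kb in the Ogtflox+/Y libraries, against 125, 116, 117 and 108 CPM per kb in the Ogtflox-/Y libraries.

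Among the SK genes, Kcnn2 made up 44.9%, 46.8%, 40.8% and 39.9% of the summed CPM per kb of the 3 genes in the Ogtflox+/Y libraries, against 22.6%, 28.8%, 29.8% and 31.5% in the Ogtflox-/Y libraries. Kcnn1 made up 35.9%, 35.1%, 39.2% and 39.1% in the Ogtflox+/Y libraries, against 45.9%, 51.0%, 47.9% and 45.0% in the Ogtflox-/Y libraries. Neither share overlapped between groups. Shares within a library add up to the whole, so the differences of Kcnn1 and Kcnn2 are tied to each other. In CPM the groups overlapped for both genes. On the exon lengths of the table, Kcnn2 was the leading SK message in every Ogtflox+/Y library and Kcnn1 in every Ogtflox-/Y library, those numbered 3 included. By CPM alone, Kcnn2 still led every Ogtflox+/Y library, but the lead of Kcnn1 depended on those lengths. Kcnn3 had 27.6, 26.7, 29.2 and 30.6 CPM in the Ogtflox-/Y libraries, against 17.7, 29.7, 27.5 and 25.7 CPM for Kcnn1. The share of Kcnn3 overlapped, at 19.6% ± 1.24 in Ogtflox+/Y and 24.4% ± 4.94 in Ogtflox-/Y (SD, n = 4 each). The summed SK level was 11.3 ± 2.95 CPM per kb in Ogtflox+/Y and 11.5 ± 2.08 CPM per kb in Ogtflox-/Y (SD, n = 4 each). The shares are descriptions of these libraries and were not tested.

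**Figure D3:**
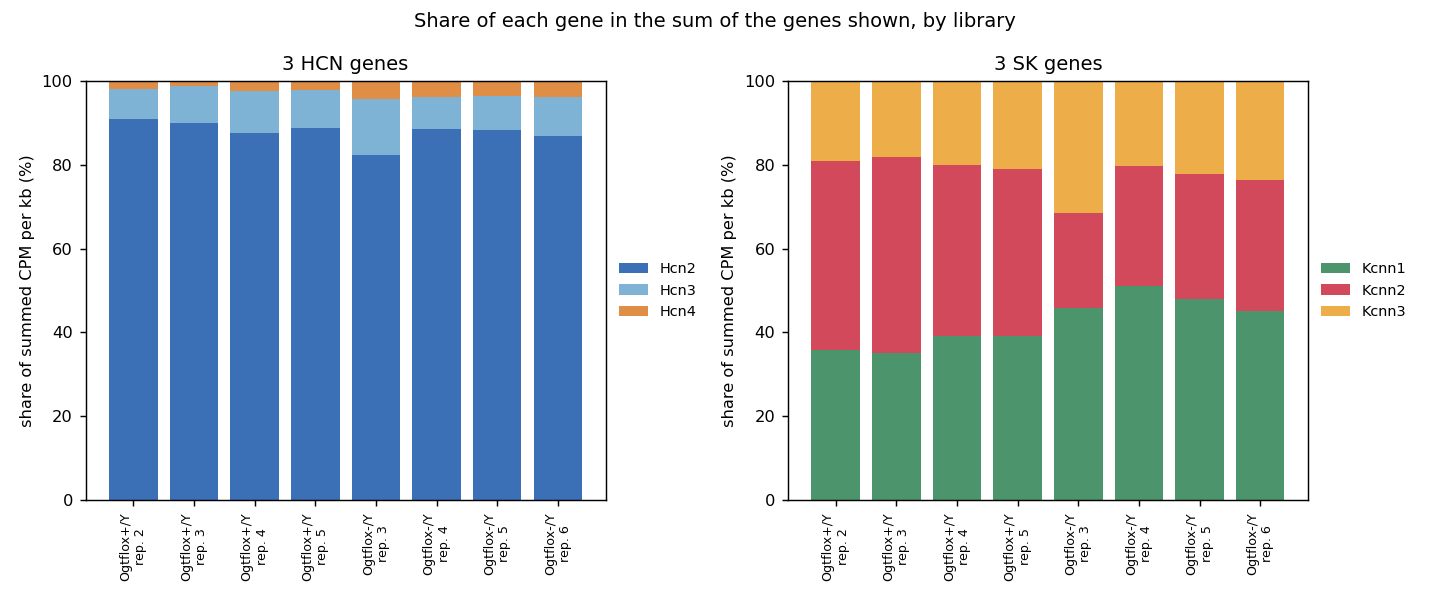
Share of each gene in the summed CPM per kb of the genes of its family shown (y axis, percent) in each library (x axis, Ogtflox+/Y left of Ogtflox-/Y), for 3 HCN genes and 3 SK genes. The Hcn4 share is 1.31% to 2.35% in Ogtflox+/Y and 3.57% to 4.21% in Ogtflox-/Y, and the Kcnn2 share is 39.9% to 46.8% in Ogtflox+/Y and 22.6% to 31.5% in Ogtflox-/Y.

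Genes that act on or beside these channels were taken from 7 lists with 83 tested members. Over the lists, 23 were lower and 6 higher in Ogtflox+/Y, beside 15.1% and 13.4% of all genes. When libraries were scaled on neuron markers, 1 was lower and 45 were higher, beside 1.21% and 64.9% of all genes. The neuron markers themselves were lower under TMM, as given above. Without both libraries numbered 3, 34 were lower and 10 higher, beside 23.3% and 23.5% of all genes. The count of higher genes was 3 without Ogtflox+/Y replicate 4 or 5 or Ogtflox-/Y replicate 4 or 5, beside 8.12% to 9.87% of all genes. Counts of a few genes in a list thus moved with single libraries.

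Of 9 genes for proteins that bind or modify HCN channels 6 were not called, 2 (22.2%) were higher and 1 (11.1%) was lower, beside 13.4% higher and 15.1% lower of all genes, and the median log2 fold change was -0.07. Lrmp encodes a protein that blocks the effect of cyclic AMP on HCN4. It was low but higher in each Ogtflox+/Y library, with 1.52, 0.760, 0.919 and 0.849 CPM, against 0.189, 0.292, 0.290 and 0.354 CPM in the Ogtflox-/Y libraries (log2 fold change +1.84 ± 0.43, SE, adjusted p = 0.0104). Kcne2, a small accessory subunit, was also higher (log2 fold change +2.80, adjusted p = 0.0495) but was under 1 CPM in every library and listed at 0 in 1 of them, and its call was lost without Ogtflox+/Y replicate 2, 4 or 5 or Ogtflox-/Y replicate 4, 5 or 6 (adjusted p = 0.0563 to 0.132). Tiam1, a Rac exchange factor, was lower (log2 fold change -0.53, adjusted p = 0.0241), and its call was lost without Ogtflox+/Y replicate 2 (adjusted p = 0.0508, range over the alternatives 0.00695 to 0.132) and its sign under both marker scalings. Without the filter on low counts, 1 of this list was called higher and 1 lower, beside 6.04% and 8.56% of all genes.

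A list of 20 genes held adenylyl cyclases, phosphodiesterases of cyclic AMP and cyclic GMP, and the G protein subunit genes Gnas and Gnal. Of these, 6 (30%) were lower and none was higher, beside 15.1% and 13.4% of all genes, and the median log2 fold change was -0.62. Without both libraries numbered 3, 10 were lower and 2 higher, beside 23.3% and 23.5% of all genes. The largest was the cyclic AMP phosphodiesterase Pde4a, with 45.7, 29.3, 39.3 and 39.7 CPM in the Ogtflox+/Y libraries, against 127.5, 121, 121 and 121 CPM in the Ogtflox-/Y libraries. The 4 Ogtflox-/Y values were nearly identical and far above the others (log2 fold change -1.67 ± 0.14, SE, adjusted p = 0.000151). Pde1a, a phosphodiesterase switched on by calmodulin, was also lower (log2 fold change -1.07), as were the adenylyl cyclase Adcy5 (-0.74) and Gnas (-0.74), the stimulatory G protein subunit, whose locus also holds antisense transcripts that counts without strand cannot tell apart. Enzymes of both synthesis and breakdown were thus among the lower genes. Pde4a kept its sign under both marker scalings, Pde1a turned under that on dopamine markers, and Adcy5 and Gnas turned under both.

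Of 12 genes for SK partners, 4 (33.3%) were lower and 3 (25%) higher, beside 15.1% and 13.4% of all genes, with a median of -0.16. The count of higher genes was 1 without Ogtflox+/Y replicate 3, 4 or 5 or Ogtflox-/Y replicate 4 or 5. In those fits 8.12% to 13% of all genes were higher. Calmodulin is the calcium sensor of SK channels, and its genes Calm2 and Calm3 were lower. Calm3 had 1183, 1348, 1344 and 1424 CPM in the Ogtflox+/Y libraries, against 1941, 2388, 2386 and 2467 CPM in the Ogtflox-/Y libraries (log2 fold change -0.79 ± 0.14, SE, adjusted p = 0.00259). Calm2, added after its values were seen, had a log2 fold change of -0.81 (adjusted p = 0.00625). SK channels hold protein kinase CK2 and phosphatase 2A. The CK2 catalytic gene Csnk2a2 was higher in every Ogtflox+/Y library (log2 fold change +0.50, adjusted p = 0.00561), and the phosphatase scaffold Ppp2r1a was lower (-0.75, adjusted p = 0.00399). The second CK2 catalytic gene Csnk2a1 had +0.38 (adjusted p = 0.0492) and the CK2 regulatory gene Csnk2b -0.28 (adjusted p = 0.243). The phosphatase catalytic genes Ppp2cb, at +0.33 with groups that did not overlap, and Ppp2ca, at -0.10, did not pass (adjusted p = 0.1 and 0.607). Map1a, a microtubule protein, was lower as well (-1.33, adjusted p = 0.00309). Calm3 and Ppp2r1a turned positive under both marker scalings, and Map1a under that on dopamine markers.

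Among 17 calcium channels, stores and pumps, 6 (35.3%) were lower and 1 (5.88%) higher, beside 15.1% and 13.4% of all genes, with a median of -0.46. Lower genes included the T-type channel Cacna1g (log2 fold change -0.91), the N-type channel Cacna1b (-0.65) and the plasma membrane pump Atp2b2 (-0.72), each of which turned positive under both marker scalings. The IP3 receptor Itpr2, known for its role in astrocytes, had 40.8, 21.5, 32.6 and 28.8 CPM in the Ogtflox+/Y libraries, against 14.4, 10.3, 16.0 and 11.5 CPM in the Ogtflox-/Y libraries (log2 fold change +1.24 ± 0.22, SE, adjusted p = 0.00277). Its rise went in the direction of the astrocyte markers given above, and the part of those cells in it was not tested.

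Of 9 leak channel genes 4 (44.4%) were lower, beside 15.1% of all genes, and none was higher (median -0.42). Nalcn, the sodium leak channel that helps dopamine neurons depolarise, had 40.7, 39.5, 41.6 and 35.5 CPM in the Ogtflox+/Y libraries, against 83.6, 89.0, 69.9 and 79.3 CPM in the Ogtflox-/Y libraries (log2 fold change -1.03 ± 0.12, SE, adjusted p = 0.000454). Its groups were well apart, and its partner Fam155a (-0.57) and the potassium leak channels Kcnk9 (-0.99) and Kcnk2 (-0.42) were lower too. The call of Kcnk2 was lost without Ogtflox+/Y replicate 2 or 5 or Ogtflox-/Y replicate 4, 5 or 6 (adjusted p = 0.0531 to 0.0986), and that of Fam155a without Ogtflox-/Y replicate 6 (adjusted p = 0.0524, range over the alternatives 4.93e-05 to 0.0834). Without that library 2 leak channel genes were lower, beside 10.4% of all genes. Of 9 M-current and ERG channel genes, 1 (11.1%, under the share of all genes) was lower, Kcnh1 (-0.82), a relative of the ERG channels, and none was higher. The count of lower genes was 3 without Ogtflox-/Y replicate 3 and 2 without Ogtflox+/Y replicate 2, 3 or 4. Of all genes, 16.8% were lower in the first of these fits and 11.6% to 16.1% in the others. Nalcn, Fam155a, Kcnk2, Kcnk9 and Kcnh1 all had positive values under both marker scalings. Of 7 large-conductance and sodium-activated potassium channel genes, 1 (14.3%, near the share of all genes) was lower. That gene, Kcnt1, had a log2 fold change of -1.27 (adjusted p = 0.0283), or -0.74 (adjusted p = 0.0131) without Ogtflox-/Y replicate 3 and -0.61 (adjusted p = 0.00542) without both libraries numbered 3, and lost its call without Ogtflox+/Y replicate 3 (adjusted p = 0.0808), 4 (0.0667) or 5 (0.0631), within a range of 0.000986 to 0.567 over the alternatives.

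**Figure D4:**
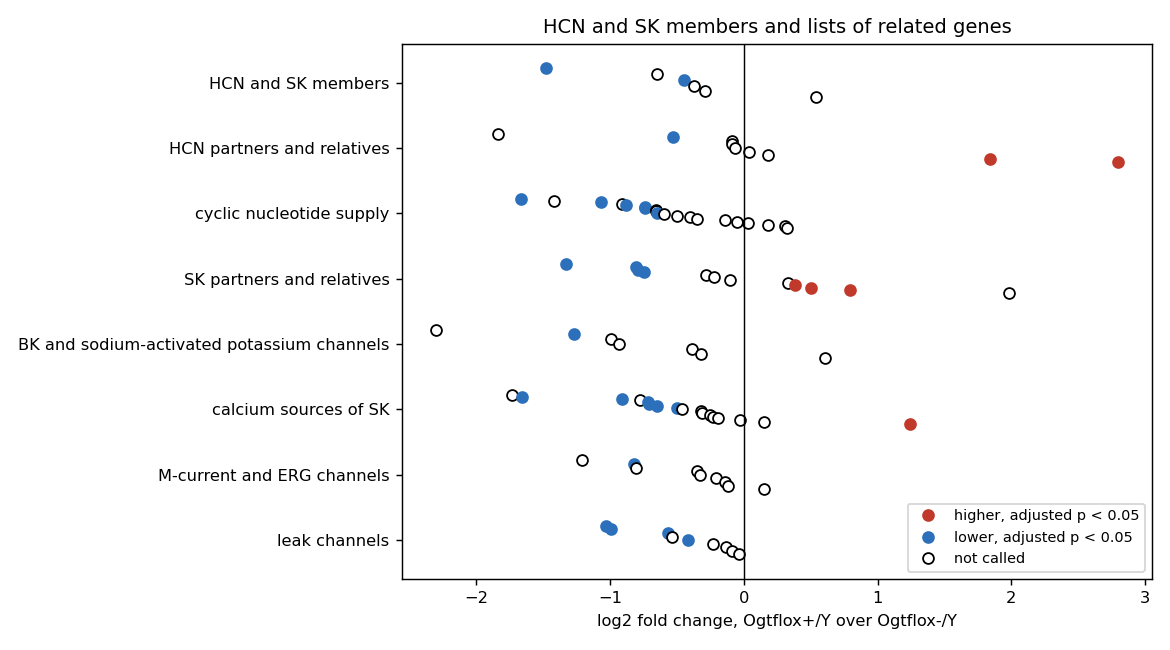
Log2 fold change of Ogtflox+/Y over Ogtflox-/Y (x axis) of every tested gene of the 6 channel genes (top) and of the 7 lists (y axis). Filled points passed the test under TMM scaling (red higher, blue lower) and open points did not. Of the 83 list genes 23 were lower and 6 higher, beside 15.1% and 13.4% of all genes. Under scaling on neuron markers 1 was lower and 45 were higher, beside 1.21% and 64.9% of all genes.

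Genes with the most similar profile over the 8 libraries were sought for each channel gene among 13244 tested genes, as the smallest root mean square difference between log2 CPM profiles centred on their means. For Hcn4 they were Sh2d5 (0.107 on the log2 scale) and Gpr26 (0.109), which had log2 fold changes of -1.62 and -1.30. For Hcn2 they were Zfyve9 (0.0514) and Ears2 (0.0570), and for Hcn3 Hectd3 (0.0749) and Epb41l4a (0.109), a pair that share its high value in Ogtflox-/Y replicate 3. Grin2b was close to Kcnn1 (0.0815), Kcnn2 was closest to Tbc1d12 (0.0631) and Rnf146 (0.0743), and Kcnn3 to Cstf2 (0.0675) and Zswim4 (0.0771). Among the 6 genes themselves the closest pair was Hcn2 and Kcnn3 (0.187) and the most distant Hcn4 and Kcnn2 (1.15). All profiles share the same 8 libraries, so the libraries numbered 3 weigh in each of these distances.

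The promoters of the 2 called genes are shown, from RefSeq (GRCm38.p6), as the 250 bases before the transcription start, with the GC box (GGGCGG on either strand) in capitals. That of Hcn2 is at chr10:79716384-79716633 and that of Hcn4 at chr9:58822699-58822948, both on the plus strand.
Hcn2: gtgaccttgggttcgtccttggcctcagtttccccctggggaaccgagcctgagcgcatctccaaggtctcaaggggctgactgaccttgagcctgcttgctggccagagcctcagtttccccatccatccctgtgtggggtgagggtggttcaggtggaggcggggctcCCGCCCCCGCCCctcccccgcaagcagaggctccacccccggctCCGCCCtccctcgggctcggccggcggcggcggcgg
Hcn4: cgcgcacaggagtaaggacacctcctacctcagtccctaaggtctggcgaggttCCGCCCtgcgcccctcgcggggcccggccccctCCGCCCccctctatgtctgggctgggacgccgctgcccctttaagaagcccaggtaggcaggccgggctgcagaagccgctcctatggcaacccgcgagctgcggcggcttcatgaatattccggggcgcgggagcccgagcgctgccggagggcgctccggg
The GC box occurred 3 times in the Hcn2 window and 2 times in the Hcn4 window, and 32.7% of 32851 promoters of the same length hold at least 1. The promoter of Kcnn3 held none, and of the 2 promoters listed for Kcnn1 1 held a single match. The letters TTCNNNGAA, on either strand, were in none of these 5 windows and in 7.02% of all promoters. The letters CANNTG occurred once in the Hcn2 window and not in the Hcn4 window, beside 66.2% of all promoters. A match is a description of these letters only.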

How the data were processed

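The authors deposited 1 table of raw read counts per gene for 8 libraries, made with featureCounts 2.0.3 over GENCODE vM30 exons, per the file headers. The header's command line names read pairs as input and says nothing of strand, of counting a pair once or of multiply aligned reads. Counts are therefore unstranded and of single mates, and reads that fit several places or several genes were left out. This lowers genes that overlap another, such as Hcn3. FastQC, Trimmomatic, STAR and the build mm10 are named in the submitters' processing notes, without versions. GENCODE vM30 belongs to GRCm39, and the conflict with mm10 was not resolved. Coordinates and exon lengths of genes are those of the deposited table, while printed sequences are on GRCm38. Symbols came from GENCODE M21 and matched 52073 of 56691 gene IDs, so Lrmp, Mrvi1 and Fam155a are older symbols.

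Titles gave the genotype, and so the group, of each library. Genes were filtered with filterByExpr (19912 left), scaled by TMM and tested, two-sided, with glmQLFit (robust) and glmQLFTest in edgeR 4.0.16 under R 4.3.3, over all 8 libraries without covariates. P-values were adjusted by Benjamini-Hochberg over these genes, and 0.05 was the threshold. The SE of a log2 fold change was taken from its F statistic. The detection floor of 3 reads equals 0.0203 to 0.0602 CPM and covers counting error only. Libraries of 1 group differed far beyond sampling noise (chi-square per degree of freedom 22.9 to 420), so none was the same library sequenced again. The check does not tell repeats from the same animal apart from separate animals. The test was checked on simulated data.

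Alternatives were RLE and upper quartile scaling, scaling on 20 neuron or 13 dopamine neuron markers, no filter, a strict filter (4 or more libraries at 1 CPM or above), limma-voom with quality weights (limma 3.58.1), DESeq2 1.42.0, estimation without robustness, the replicate number as a block, and leaving out each library or both libraries numbered 3. The 6 genes, the lists and these choices were made with earlier results of these data known. The rule for names took the 6 genes, Ogt, Th, Slc6a3, Rbfox3, from each list the called genes of smallest p, 4 at most, and the 2 genes of most similar profile (log2 CPM with a prior count of 2). Kcnn4, outside it, completes the SK family, and Pklr, Calm2, Aldh1a1, Gfap, Csnk2a1, Csnk2b, Ppp2ca and Ppp2cb were added after their values were seen. Some genes of the lists, the families and the profiles are not reported here, and lists, sums and shares were computed without them.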

Additional observations from a re-analysis of the deposited data

Results flagged for a closer look

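In groups of 4 libraries, 17 of the 100 examined had 1 library far from the others. Its distance to its nearest neighbour took up more of the range of its group than Dixon's critical value for 4 samples allows. Chance gives about 1 such group in 20, but only for independent groups, and these were not independent. The genes of most similar profile were chosen to follow the channel genes over the same libraries. The sums and shares were made of the channel genes themselves. The count of 17 was therefore not compared with chance. In 16 of the 17 the distant library was numbered 3, and no explanation was weighed.

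Among the channel genes, the share of the range was 0.966 for Hcn2 in Ogtflox-/Y, where replicate 6 had 300.2 CPM beside 329 to 329.7 CPM. It was 0.85 for Hcn3, where Ogtflox-/Y replicate 3 had 70.2 CPM beside 36.8 to 41.8 CPM. Kcnn2 gave 0.868, with 14.1 CPM in Ogtflox-/Y replicate 3 beside 27.3 to 29.3 CPM, and Kcnn3 gave 0.888, with 13.03 CPM in Ogtflox+/Y replicate 3 beside 26.0 to 27.6 CPM. The sum of Hcn2, Hcn3 and Hcn4 gave 0.884 in Ogtflox+/Y (replicate 3 at 60.6 CPM per kb), and the summed SK level gave 0.949 in Ogtflox-/Y (replicate 3 at 8.39 CPM per kb).

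Ogtflox-/Y replicate 3 was low for Rbfox3 (0.885), Calm3 (0.847) and Rnf146 (0.83), and high for Kcnt1 (0.934), Pde4a (0.996), Hectd3 (0.833), Epb41l4a (0.921) and Gpr26 (0.841). For Pde4a the distance is small in CPM, 127.5 beside 121, because the other 3 libraries were nearly identical. Ogtflox+/Y replicate 3 was low for Zfyve9 (0.95), Sh2d5 (0.855) and Grin2b (0.83).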

How the results depend on the processing

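Of the 6 channel genes, Hcn4 kept a negative and Kcnn2 a positive sign in all 19 alternatives, though marker scalings could not turn a positive value. The other 4 turned positive when libraries were scaled on markers and in no other alternative. Scaling on neuron markers gave 240 lower and 12925 higher genes, against 3009 and 2659 under TMM; 0 channel genes were lower and 4 higher, and list genes were 1 lower and 45 higher. Log2 fold changes were then +0.57 for Hcn2, +0.34 for Hcn3, -0.48 for Hcn4, +0.65 for Kcnn1, +1.58 for Kcnn2 and +0.72 for Kcnn3. Signs also turned for Rbfox3 (+0.34), Tiam1 (+0.49), Adcy5 (+0.29), Gnas (+0.29), Calm3 (+0.24), Ppp2r1a (+0.27), Cacna1b (+0.39), Cacna1g (+0.10), Atp2b2 (+0.30), Kcnh1 (+0.19), Nalcn (+0.01), Fam155a (+0.46), Kcnk2 (+0.60) and Kcnk9 (+0.03). Scaling on dopamine neuron markers gave 57 lower and 14323 higher genes, 0 and 5 channel genes, and 0 and 55 list genes. Values were +0.90 for Hcn2, +0.74 for Hcn3, -0.16 for Hcn4, +0.89 for Kcnn1, +1.82 for Kcnn2 and +1.02 for Kcnn3. Signs turned for Ogt (+0.14), Rbfox3 (+0.58), Tiam1 (+0.86), Adcy5 (+0.59), Gnas (+0.59), Pde1a (+0.25), Calm3 (+0.54), Ppp2r1a (+0.61), Map1a (+0.01), Kcnt1 (+0.26), Cacna1b (+0.72), Cacna1g (+0.52), Atp2b2 (+0.65), Kcnh1 (+0.49), Nalcn (+0.35), Fam155a (+0.74), Kcnk2 (+0.91) and Kcnk9 (+0.32). Both scalings raise all genes by construction.

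Upper quartile scaling left 1 channel gene lower, with Hcn2 at -0.36. Without a filter, 3 list genes were higher and Hcn3 passed at -0.68. DESeq2 called Hcn3 at -0.63. Limma-voom with quality weights called 4967 lower and 5251 higher genes, 37 and 10 list genes, and 1 channel gene higher, Kcnn2 at +0.46. Without both libraries numbered 3, 4760 genes were lower and 4805 higher, 10 list genes and 1 channel gene were higher, and Kcnn1 (-0.31) and Kcnn2 (+0.50) passed. The cause of these changes was not tested.

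Replicate numbers 3, 4 and 5 occur in both groups, and no label says whether they pair libraries. Deviations of same-numbered libraries from their group means correlated at 0.10, 0.10 and 0.04. Libraries of different number gave -0.10 to 0.08. So few correlations cannot settle whether the numbers pair libraries, and the main test did not treat them as pairs. With the replicate number as a block, 778 genes were lower and 480 higher, 0 channel genes were lower, 6 list genes were lower and 0 higher, and Hcn2 (-0.56) and Hcn4 (-1.66) missed the threshold with fewer residual degrees of freedom. Ogtflox+/Y replicate 2 and Ogtflox-/Y replicate 6 have no library of the same number in the other group. In the block fit they added nothing to the group difference.

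Over the repeats that left out 1 library each, 2140 to 3475 genes were lower and 1684 to 3723 higher, 1 to 2 channel genes were lower and 0 higher, and 20 to 29 list genes were lower and 3 to 7 higher. Log2 fold changes ranged from -0.52 to -0.33 for Hcn2, -0.78 to -0.40 for Hcn3, -1.65 to -1.26 for Hcn4, -0.51 to -0.18 for Kcnn1, 0.35 to 0.69 for Kcnn2 and -0.41 to -0.10 for Kcnn3. Depth did not limit the channel genes, each with at least 268 reads in every library, but it limits Kcne2, Kcnn4 and Lrmp.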
